A study of Homo sapiens with 9 samples.

Results

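LIMp27 siRNA-2 and control siRNA were compared in WiDr cells over every gene with enough reads. WiDr is an established human colon adenocarcinoma line, so it models 1 tumor and no normal tissue. The study classes it as p53-mutant. The cells of all groups received 100 nM of siRNA and were harvested after 24 h, and they differed by the siRNA alone. Each of control siRNA, LIMp27 siRNA-1 and LIMp27 siRNA-2 had 3 libraries. The 3 LIMp27 siRNA-2 libraries and the 3 control libraries make 6 of the 9 libraries of the study. The 3 LIMp27 siRNA-1 libraries were used only where the siRNAs were compared with each other and in an alternative fit of all 9 libraries. Of 25159 genes listed for the study, 23919 were listed for these 6 libraries and 14204 had enough reads to be tested. The study asked which transcripts depend on LIMp27, a long noncoding RNA that it places upstream of the cell cycle inhibitor p27. The study calls the 3 libraries of a group biological or experimental repeats. The labels number them without saying that they came from separate cultures, so the p-values measure the spread between these libraries.

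A small interfering RNA is loaded into an Argonaute protein and guides it to transcripts with a matching sequence, which are then cleaved. A guide can also lower transcripts that match only its seed, the bases near its 5′ end, and for this reason 2 siRNAs of different sequence are commonly used against 1 target. The transcript groups described here cover the pathways a dividing colon cancer cell leans on: inflammatory signaling through NF-kB, glycolysis and the response to low oxygen, the making of ribosomes and proteins, growth factor signaling, cell death and the epithelial cytoskeleton. In bulk RNA, a change in the mix of cells and a change of transcripts per cell cannot be told apart.

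Reads assigned to genes numbered 14361629 to 19703936 per library. Libraries of 1 group correlated with each other at 0.990 or more on the log scale, and with the other group at 0.969 or less, so none stood apart from its group. Mitochondrial transcripts took 7.25% to 8.64% of the reads in the control libraries and 8.75% to 10.3% with LIMp27 siRNA-2, and their part in the results was not tested. Of 13 colon epithelial markers, 11 were listed, KRT8 and KRT18 among them, whereas CDX1 and GPA33 were not listed. The marker sums given here are raw reads, not scaled to the depth of each library. Markers of endothelial cells, neurons and erythroid cells were not listed or summed to at most 8 reads per library. Leukocyte markers summed to 31366 to 35082 reads per control library and 18302 to 26872 with LIMp27 siRNA-2, nearly all of them from LYZ, the gene of the secreted enzyme lysozyme, while PTPRC and CD3D were not listed. The 4 listed fibroblast markers summed to 42 to 44 reads per control library and 185 to 252 with LIMp27 siRNA-2, with LUM as the only one called, while COL1A2, COL3A1, DCN and PDGFRA were not listed. LIMp27 itself, listed as LINC01356, had 0, 0 and 2 reads in the control libraries and 0, 2 and 1 with LIMp27 siRNA-2, too few at this depth to show a knockdown. The study reports the knockdown in WiDr cells from qPCR, which these reads cannot check.

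Of the 14204 genes tested, 3939 were higher (27.7%) and 4120 were lower (29.0%) in the siRNA-2 libraries (adjusted p under 0.05). Among the genes called, the median change was 0.50 on the log2 scale in either direction. At least a 2-fold change was reached by 634 genes that rose (4.46%) and 656 that fell (4.62%), and at least a 4-fold change by 60 and 70. The counts of the 3 siRNA libraries and of the 3 control libraries did not overlap for 61.3% of tested genes. These shares are the background against which each gene group is read below. They depended on level: 12.7% of genes under 100 normalized counts fell, 31.8% at 100 to 1000 and 41.6% over 1000. The shares that rose were 23.6%, 31.0% and 26.6%. Most gene lists consist largely of genes above 100 counts and were not matched for level, so a share near these values is not particular to a list. A normalized count is a read count scaled to the average depth of the 6 libraries and is not corrected for gene length. In every gene that passed the test and whose counts are given library by library, the siRNA-2 libraries did not overlap the control libraries.

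Among the genes at the center of the study, CDKN1B and HNRNPA0 rose, CDKN1A fell and E2F1 did not pass the test. HNRNPA0, which encodes an RNA-binding protein that partners LIMp27 in the study, had 5561, 5430 and 5019 normalized counts in the control libraries and 7401, 8031 and 7531 with LIMp27 siRNA-2 (log2 fold change 0.52, standard error 0.05, adjusted p = 1.4e-09). In WiDr and HT-29 cells the study itself reports no change of hnRNPA0 with LIMp27 silencing, unlike the rise here. E2F1 encodes a transcription factor that drives entry into S phase. It had 1296, 1261 and 1137 normalized counts with control siRNA and 1328, 1400 and 1319 with siRNA-2, and although the 2 groups did not overlap, the log2 fold change of 0.13 did not pass the test (adjusted p = 0.077). The log2 fold changes of CDKN1B and CDKN1A were 0.62 and −1.08, so the transcripts of these related inhibitors, p27 and p21, moved in opposite directions.

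The largest falls were in SPP1, IL1RN, MCAM, KCTD12, ERAP2, PLAU, NQO1, GGCT, TMEM123, CFL2, MMGT1 and HPGD, and the largest rises in LUM, BMF, NR2F1, ZNF702P, NR2F1-AS1, MEX3B, VGLL1, AC098934.1, SLITRK6, MXD4, ZNF618 and TMPRSS2. These are the genes with at least 100 normalized counts on average whose libraries did not overlap. SPP1 lies on chromosome 4 from 87975650 to 87983426 of GRCh38 and encodes osteopontin, a secreted phosphoprotein that binds integrins. It had 432, 435 and 473 counts in the control libraries and 34.0, 33.6 and 42.8 in the siRNA-2 libraries, a fall of 12.2-fold (log2 fold change −3.61, standard error 0.13, adjusted p = 3.4e-19). IL1RN, which encodes the antagonist of the interleukin-1 receptor, had 403, 406 and 374 normalized counts in the control libraries and 26.4, 43.4 and 41.6 with LIMp27 siRNA-2 (log2 fold change −3.44, standard error 0.15, adjusted p = 7.3e-18). In both genes every siRNA library lay far below every control library, and the lowest IL1RN library was siRNA-2 replicate 1. TMEM123 encodes a mucin-like membrane protein and was abundant in both groups. It had 16161, 16516 and 16274 normalized counts with control siRNA and 3063, 2893 and 3094 with siRNA-2 (log2 fold change −2.44, standard error 0.05, adjusted p = 1.8e-24), and the 3 libraries of each group lay close together. GGCT, an enzyme of glutathione breakdown, had 1786, 1602 and 1756 counts in the control libraries and 328, 309 and 294 in the siRNA-2 libraries (log2 fold change −2.46, standard error 0.07, adjusted p = 2.6e-21). HPGD degrades prostaglandins, and its log2 fold change was −2.36 (adjusted p = 3.8e-15). MCAM and KCTD12, which encode a cell adhesion molecule and a protein of the BTB domain family, had log2 fold changes of −2.79 and −2.78.

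**Figure D1:**
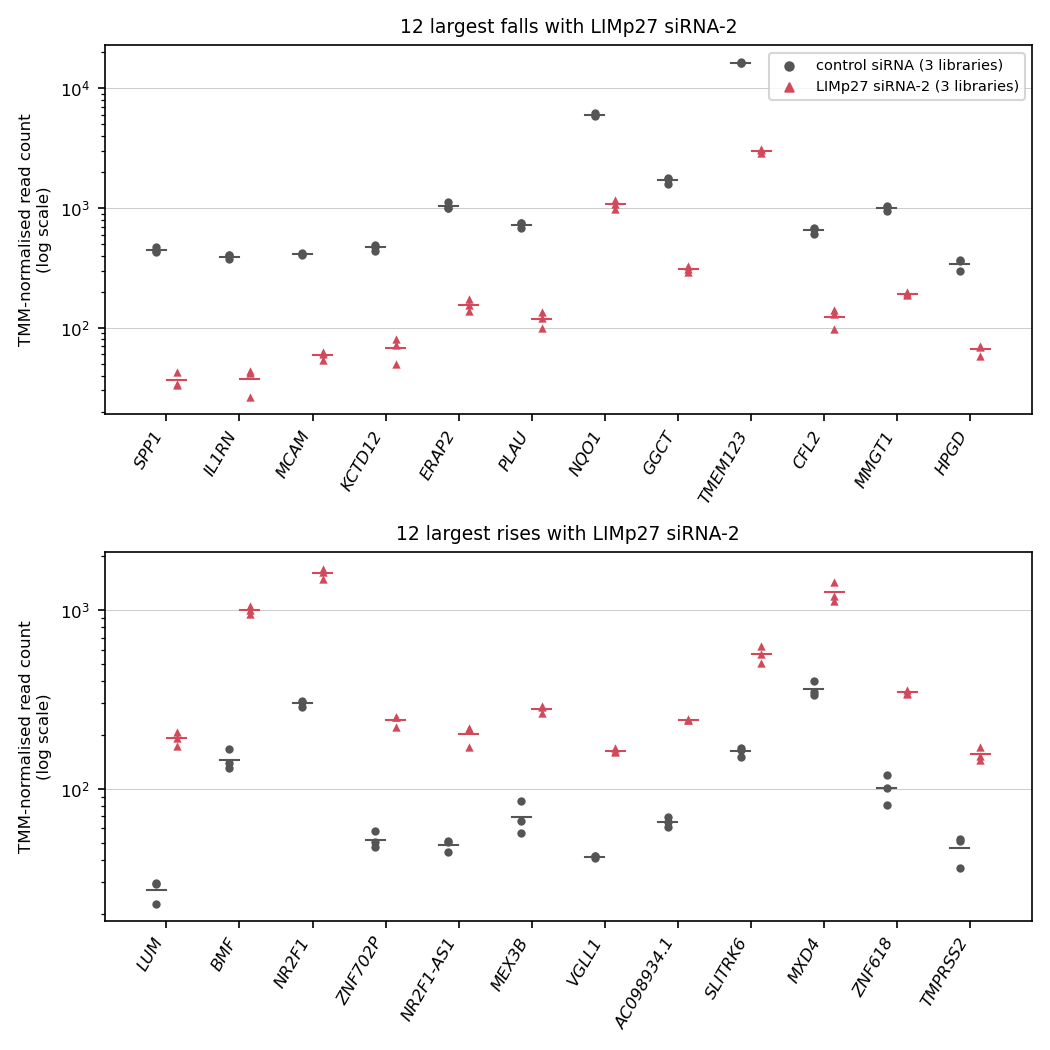
TMM-normalized read counts (log scale) of the 12 genes with the largest falls (top) and the 12 with the largest rises (bottom) in WiDr cells with control siRNA (gray circles) or LIMp27 siRNA-2 (red triangles). Each point is 1 library and each line the mean of 3; in every gene the libraries of the 2 groups are apart, from SPP1 at 432 to 473 against 33.6 to 42.8 to LUM at 22.7 to 29.7 against 173 to 208.

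On the rising side, LUM encodes lumican, a proteoglycan of the extracellular matrix. It had 29.7, 22.7 and 29.4 normalized counts in the control libraries and 193, 173 and 208 with LIMp27 siRNA-2 (log2 fold change 2.80, standard error 0.17, adjusted p = 5.1e-14), low in all control libraries and several times higher in every siRNA library. No other fibroblast marker was called. BMF lies on chromosome 15 from 40087890 to 40108892 and encodes a member of the BCL2 family that promotes apoptosis when cells lose their anchorage. It had 167, 131 and 139 normalized counts with control siRNA and 1005, 1050 and 948 with siRNA-2, a rise of 6.86-fold (log2 fold change 2.78, standard error 0.09, adjusted p = 3.8e-20). NR2F1, a nuclear receptor, had 306, 285 and 309 counts in the control libraries and 1626, 1696 and 1482 in the siRNA-2 libraries (log2 fold change 2.42, standard error 0.07, adjusted p = 6e-21). Its neighbor NR2F1-AS1, a long noncoding RNA read from the opposite strand, had 50.7, 44.4 and 50.2 normalized counts in the control libraries and 218, 217 and 171 with LIMp27 siRNA-2 (log2 fold change 2.06, standard error 0.15, adjusted p = 3.1e-12), so both transcripts of the locus rose. The labels call the library strand-specific, but the strand setting of the count is not given in the sources used here, so reads of overlapping opposite transcripts may be shared. VGLL1, a cofactor of TEAD transcription factors, and TMPRSS2, a membrane serine protease, had log2 fold changes of 1.97 and 1.73. SLITRK6 encodes a membrane protein with leucine-rich repeats, and its log2 fold change was 1.81. ZNF702P is a zinc finger pseudogene with close relatives, so its reads (2.21 on the log2 scale) may be split with them.

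Inflammatory genes had the lowest median of the gene lists examined. NF-kB is a family of transcription factors held in the cytoplasm by inhibitors of the IkB type. When released, it switches on cytokines, chemokines, survival factors and its own inhibitors. Of 24 chemokine and secreted cytokine genes tested, 15 fell (62.5%, against 29.0% of all genes) and 2 rose, with a median log2 fold change of −1.19, and 14 of the falls were at least 2-fold. CXCL8, the interleukin-8 gene and a strong attractant of neutrophils, had 3992, 4197 and 3917 normalized counts with control siRNA and 789.5, 823 and 965 with siRNA-2 (log2 fold change −2.24, standard error 0.07, adjusted p = 2.5e-21). The groups were far apart and the siRNA libraries lay within a narrow range. TNF, the tumor necrosis factor gene, had 83.3, 107 and 108 counts in the control libraries and 11.1, 16.3 and 8.10 in the siRNA-2 libraries (log2 fold change −3.06, standard error 0.26, adjusted p = 3.5e-11), and CSF2, which encodes the growth factor GM-CSF, had 86.2, 107 and 93.8 normalized counts in the control libraries and 12.8, 5.43 and 10.4 with LIMp27 siRNA-2 (log2 fold change −3.28, standard error 0.27, adjusted p = 2.1e-11). Both are low-level transcripts, and their standard errors are wider than that of CXCL8. IL23A, a subunit of interleukin-23, had 181, 206 and 228 normalized counts with control siRNA and 64.7, 38.0 and 52.1 with siRNA-2 (log2 fold change −1.97, standard error 0.16, adjusted p = 2.6e-11). LIF, a cytokine of the interleukin-6 family, had 1303, 1448 and 1321 counts in the control libraries and 524, 485 and 468 in the siRNA-2 libraries (log2 fold change −1.46, standard error 0.07, adjusted p = 1.4e-16), and IL32 and CCL20 had log2 fold changes of −1.51 and −2.48. CXCL16, the ligand of CXCR6, had 1346, 1450 and 1338 normalized counts in the control libraries and 618, 675 and 701 with LIMp27 siRNA-2 (log2 fold change −1.05, standard error 0.07, adjusted p = 7.9e-14). The falls did not extend to every cytokine. CSF3, which encodes G-CSF, had 1261, 1191 and 1336 normalized counts with control siRNA and 1345, 1247 and 1181 with siRNA-2, with overlapping groups and a log2 fold change of −0.003 (adjusted p = 0.97). CXCL2, CXCL3, IL1A and MIF also did not pass the test, although MIF was called lower once GC content and length were corrected for (−0.23, adjusted p = 0.00021). MDK, which encodes the growth factor midkine, rose by 0.59 on the log2 scale, and TNFSF15, a ligand of the tumor necrosis factor family, by 0.39 (adjusted p = 0.063 without replicate 3).

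Among 35 NF-kB subunits, feedback inhibitors and target genes, 25 fell (71.4%) and 2 rose, with a median of −0.60. BIRC3, an inhibitor of apoptosis that NF-kB induces, had 1501, 1576 and 1532 counts in the control libraries and 284, 321 and 409.5 in the siRNA-2 libraries (log2 fold change −2.20, standard error 0.09, adjusted p = 1.3e-18). PLAU, the urokinase gene, had 683, 749 and 749 normalized counts in the control libraries and 135, 99.8 and 122 with LIMp27 siRNA-2 (log2 fold change −2.60, standard error 0.10, adjusted p = 1.4e-18). NFKBIB, which encodes the inhibitor IkB-beta, had 848, 723 and 719.5 normalized counts with control siRNA and 1323, 1371 and 1458 with siRNA-2 (log2 fold change 0.85, standard error 0.07, adjusted p = 1.6e-11), and NFKBIZ, an atypical member of the inhibitor family, rose by 0.29 (adjusted p = 0.074 without replicate 1). A total of 9 members of this list also stand in the cytokine list, so the 2 counts are not independent.

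To set the promoters beside these values, the windows from 250 bases before to 50 bases after the first listed gene start were taken from RefSeq (GRCh38.p14) and searched on both strands for the letters GGNNNTTCC, which are common to many NF-kB sites. Of 31 list members with a window, 18 held a match (58.1%), against 23.3% of the 9804 windows of tested genes and 20.1% of all 27305 windows. The cytokine list held 7 of 16 (43.8%). The lists were drawn up from known NF-kB genes and cytokines, so a higher share of matches was built into them. Whether matches went with the falls was not tested. The windows of CXCL8 and BIRC3, which had some of the largest falls in the list, are shown with the match in capitals; a match is a description of the letters and not a measured binding site. The CXCL8 window is chr4:73740319-73740618 on the plus strand and its match starts 91 bases before the gene start. The BIRC3 window is chr11:102317234-102317533 on the plus strand, with a match 199 bases before the start, read on the minus strand.
CXCL8: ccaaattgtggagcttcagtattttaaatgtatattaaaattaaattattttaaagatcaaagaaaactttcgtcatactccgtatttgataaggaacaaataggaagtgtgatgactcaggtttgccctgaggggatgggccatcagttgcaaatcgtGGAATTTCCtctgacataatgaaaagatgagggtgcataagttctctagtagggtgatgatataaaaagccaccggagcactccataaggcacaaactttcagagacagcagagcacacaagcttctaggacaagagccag
BIRC3: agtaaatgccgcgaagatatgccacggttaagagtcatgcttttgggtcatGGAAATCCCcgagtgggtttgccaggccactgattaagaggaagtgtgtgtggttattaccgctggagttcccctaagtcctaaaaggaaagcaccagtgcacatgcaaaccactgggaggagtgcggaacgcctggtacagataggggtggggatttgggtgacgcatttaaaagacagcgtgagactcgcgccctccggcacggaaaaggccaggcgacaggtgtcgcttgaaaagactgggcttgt

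Many genes of antiviral defense and antigen display fell as well. Interferons switch on defense genes through STAT2 and its partners, and cells display peptides on HLA class I molecules after loading by the TAP transporter and trimming by ERAP enzymes. Of 29 interferon-stimulated genes and RNA sensors tested, 20 fell (69.0%) and 2 rose, with a median of −0.61. PARP14, an ADP-ribosyltransferase, had 611, 707 and 727 counts in the control libraries and 247, 202 and 235 in the siRNA-2 libraries (log2 fold change −1.57, standard error 0.09, adjusted p = 1.7e-14), and its partner gene DTX3L, a ubiquitin ligase, had 1309, 1339 and 1410 normalized counts in the control libraries and 531, 498 and 570.4 with LIMp27 siRNA-2 (log2 fold change −1.34, standard error 0.07, adjusted p = 5.4e-16). The 2 that rose were ISG20 (0.65), a ribonuclease, and STAT2 (0.28, adjusted p = 0.098 without replicate 1). Of 23 antigen presentation genes, 11 fell and 2 rose. ERAP2, which trims peptides in the endoplasmic reticulum, had 1006, 1116 and 1001 normalized counts with control siRNA and 174, 156 and 139 with siRNA-2 (log2 fold change −2.72, standard error 0.09, adjusted p = 4e-20). TAPBP, the bridge between TAP and HLA molecules, had 1387, 1515 and 1469 counts in the control libraries and 381, 420 and 420 in the siRNA-2 libraries (log2 fold change −1.84, standard error 0.07, adjusted p = 7.2e-19), and TAP2 and TAP1 had log2 fold changes of −1.78 and −1.72. The HLA genes moved less. HLA-C had a log2 fold change of −0.49 (adjusted p = 3.8e-06), while HLA-E did not pass the test at −0.01. HLA genes are polymorphic and similar to each other, so reads of 1 may be counted to another. Of 8 complement genes tested, 2 rose and 3 fell, the latter C4BPB (−1.31), CD55 (−1.28) and CD59 (−0.60). CD55 and CD59 shield the cell surface from complement.

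Most glycolysis genes fell. Glycolysis turns glucose into pyruvate and, in cancer cells, largely into lactate, and many of its enzymes are induced by HIF1, the factor that responds to low oxygen. Of 27 glycolysis genes tested, 20 fell (74.1%) and 1 rose, with a median of −0.42. LDHA, which makes lactate, had 46736, 45369 and 47696 normalized counts in the control libraries and 18828, 18167 and 19674 with LIMp27 siRNA-2 (log2 fold change −1.30, standard error 0.05, adjusted p = 2.8e-19). The libraries of each group lay within a narrow band, and no siRNA library came near the control range. ENO2, an isoform of enolase, had 839.6, 821 and 792 normalized counts with control siRNA and 219.5, 246 and 248 with siRNA-2 (log2 fold change −1.79, standard error 0.08, adjusted p = 5.4e-17). SLC16A3, which exports lactate, had 1608, 1717 and 1542 counts in the control libraries and 608, 737 and 723 in the siRNA-2 libraries (log2 fold change −1.24, standard error 0.07, adjusted p = 7.4e-15). The single rise was in PFKL, the liver isoform of phosphofructokinase (0.51). Of 25 hypoxia response genes, 16 fell and 2 rose. SLC2A1, the glucose transporter GLUT1, had 14606, 15771 and 13234 normalized counts in the control libraries and 6102, 6788 and 6987 with LIMp27 siRNA-2 (log2 fold change −1.13, standard error 0.06, adjusted p = 8.4e-16). HIF1A, which encodes the oxygen-regulated subunit of HIF1, had 2476, 2540 and 2315 normalized counts with control siRNA and 1033, 1049 and 1251 with siRNA-2 (log2 fold change −1.14, standard error 0.07, adjusted p = 1.2e-14), and EGLN1 and EGLN3, the hydroxylases that mark it for destruction, had log2 fold changes of −1.15 and −1.38. VEGFA (−0.03, adjusted p = 0.69) and CA9 (−0.32, adjusted p = 0.16) did not pass the test. CA9 was called lower without siRNA-2 replicate 1 (−0.56, adjusted p = 0.029), without control replicate 2 (−0.46, adjusted p = 0.047) and after the correction for GC content and length (adjusted p = 0.028). HILPDA and ARNT rose by 0.46 and 0.37.

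The promoter windows of these lists were searched in the same way for ACGTG, the core of HIF sites, which also lies inside the E-box CACGTG read by MYC and other factors. A match was held by 9 of 25 glycolysis windows (36.0%) and 8 of 21 hypoxia windows (38.1%), against 27.1% of the windows of tested genes and 21.6% of all windows. These lists, too, hold known HIF1 targets, and whether matches went with the falls was not tested. The LDHA window, chr11:18394313-18394612 on the plus strand, is shown because LDHA makes the end product of the pathway and had one of its larger falls. It held 5 matches over both strands, in capitals, some of which overlap because CACGTG contains the letters on either strand.
LDHA: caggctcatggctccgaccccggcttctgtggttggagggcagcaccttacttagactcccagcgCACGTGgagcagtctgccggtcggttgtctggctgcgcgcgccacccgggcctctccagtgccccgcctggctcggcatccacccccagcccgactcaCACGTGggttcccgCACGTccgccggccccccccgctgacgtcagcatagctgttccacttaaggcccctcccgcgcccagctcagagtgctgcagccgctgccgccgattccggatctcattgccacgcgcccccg

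Respiration differed from glycolysis in its counts. Of 77 nuclear-encoded respiratory chain genes, 19 rose (24.7%) and 13 fell (16.9%), both below the share over all genes, with a median of 0.055 that became 0.020 after the correction for GC content and length, and the falls numbered 6 without replicate 1 and 7 without control replicate 1. Single subunits went far beyond this. CYC1, cytochrome c1 of complex III, had 3925, 3831 and 3428 counts in the control libraries and 949, 969 and 725 in the siRNA-2 libraries (log2 fold change −2.08, standard error 0.08, adjusted p = 3.6e-19), and SDHD, an anchor of complex II, had 1379, 1323 and 1504 normalized counts in the control libraries and 430.5, 381 and 327 with LIMp27 siRNA-2 (log2 fold change −1.88, standard error 0.08, adjusted p = 1.1e-17). Of the 13 mitochondrially encoded genes, 6 rose (3 without replicate 1), and their median of 0.12 became −0.01 once GC content and length were corrected for. MT-ND2, a complex I subunit, had the largest rise at 0.56.

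Most other routes that feed growth also tended downward, but cholesterol and fatty acid synthesis did not. Of 30 genes of purine and pyrimidine synthesis, 23 fell (76.7%) and 3 rose, with a median of −0.34. IMPDH1, an enzyme of guanine nucleotide synthesis, had 4232, 4156 and 3679 normalized counts with control siRNA and 1282, 1337 and 1194 with siRNA-2 (log2 fold change −1.66, standard error 0.06, adjusted p = 4.2e-19), and TYMS, which makes thymidylate, had 2922, 2867 and 2805 counts in the control libraries and 1233, 1372 and 1258 in the siRNA-2 libraries (log2 fold change −1.16, standard error 0.06, adjusted p = 3.7e-16). The hexosamine pathway makes the sugar donors for glycoproteins, and 10 of its 14 genes fell. GNPNAT1, an acetyltransferase of this route, had 2388, 2471 and 2516 normalized counts in the control libraries and 545, 487 and 493 with LIMp27 siRNA-2 (log2 fold change −2.27, standard error 0.07, adjusted p = 1.8e-21). UAP1, a later enzyme of the route, had a log2 fold change of −1.28, and GFPT1, which controls entry into the route, one of −0.70. Of 20 serine and one-carbon genes, 15 fell and 2 rose, but without replicate 1 only 7 fell. MTHFD2, a mitochondrial folate enzyme, fell by 0.90 on the log2 scale. NRF2 is a transcription factor that oxidative stress activates, and of 33 of its target genes 21 fell (63.6%) and 5 rose. NQO1, a quinone reductase, had 6186, 5860 and 6026 normalized counts with control siRNA and 1160, 1084 and 986 with siRNA-2 (log2 fold change −2.48, standard error 0.06, adjusted p = 5.2e-23), and GCLC, the first enzyme of glutathione synthesis, had 4377, 4513 and 4568 counts in the control libraries and 1884, 1924 and 2156 in the siRNA-2 libraries (log2 fold change −1.18, standard error 0.06, adjusted p = 1.4e-16). Of 19 iron genes 8 fell and 2 rose. TFRC, the transferrin receptor that brings iron in, had 7961, 8507 and 7468 normalized counts in the control libraries and 2746, 2666 and 2718 with LIMp27 siRNA-2 (log2 fold change −1.56, standard error 0.06, adjusted p = 1.1e-19), whereas the iron store gene FTH1 did not pass the test at −0.02 and was called lower after the correction for GC content and length (−0.13, adjusted p = 0.0078). HFE, which binds the transferrin receptor, rose (adjusted p = 2.2e-08). Among 27 cholesterol synthesis genes 11 rose and 8 fell, and among 23 fatty acid genes 8 rose and 6 fell. SCD, which puts the double bond into fatty acids, had 20258, 20542 and 19863 normalized counts with control siRNA and 9629, 9776 and 8873 with siRNA-2 (log2 fold change −1.10, standard error 0.05, adjusted p = 2.5e-17), although SREBF1, the factor that drives these genes, rose by 0.52 and FASN did not pass the test at 0.06. Of 16 metallothioneins and zinc transporters, 6 fell, among them MT2A (−0.80) and SLC30A5 (−0.91).

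Most genes that build and charge the protein synthesis machinery fell, whereas most cytosolic ribosomal protein genes were not called in either direction. Ribosomes are built in the nucleolus, loaded through initiation factors and supplied by aminoacyl-tRNA synthetases, which join amino acids to their tRNAs. Of 60 nucleolar ribosome biogenesis genes, 41 fell (68.3%) and 3 rose, with a median of −0.36. UTP15, part of the complex that processes the small subunit, had 895, 847 and 881 counts in the control libraries and 305, 260.5 and 297 in the siRNA-2 libraries (log2 fold change −1.60, standard error 0.08, adjusted p = 3.5e-16), and DDX18, an RNA helicase, had 3750, 3773 and 3656 normalized counts in the control libraries and 1414, 1345 and 1490 with LIMp27 siRNA-2 (log2 fold change −1.40, standard error 0.06, adjusted p = 2.3e-18). NOLC1, a nucleolar scaffold, was an exception and rose (log2 fold change 0.82, standard error 0.05, adjusted p = 9.1e-14). Of 22 synthetase genes, 17 fell (77.3%) and 3 rose, with GARS (−0.99), LARS (−0.87) and CARS (−0.81) lowest and HARS (0.36) highest. Among 47 initiation and elongation factors, 27 fell and 4 rose (2 rose without replicate 1, control replicate 3 or siRNA-2 replicate 1). EIF4E, which binds the cap of messenger RNA, had 1049, 1162 and 1080 normalized counts with control siRNA and 349, 349 and 340.1 with siRNA-2 (log2 fold change −1.66, standard error 0.07, adjusted p = 1.9e-17). EIF1AX, which helps find the start codon, had 7812, 7580 and 7306 counts in the control libraries and 2654, 2412 and 2505 in the siRNA-2 libraries (log2 fold change −1.58, standard error 0.05, adjusted p = 6.1e-20), and EIF4E2, a relative of EIF4E that represses translation, had a log2 fold change of −1.49. EIF3F rose (log2 fold change 0.71, standard error 0.05, adjusted p = 2.3e-12). Of 79 cytosolic ribosomal protein genes, 8 rose and 12 fell, both shares below those over all genes, with a median of −0.01 that became −0.06 after the correction for GC content and length. RPL26 and RPL22 had the largest falls in this list (−0.62 and −0.51). The rises numbered 5 or fewer with any library other than siRNA-2 replicate 3 left out and 1 without replicate 2, and the falls numbered 19 without siRNA-2 replicate 3. The falls numbered 30 after the correction for GC content and length. Many ribosomal proteins have processed pseudogenes that can take part of their reads. Of 77 mitochondrial ribosomal protein genes, 32 fell (41.6%, equal to the share over all genes above 1000 counts) and 7 rose, with MRPL19 lowest (−1.10).

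Most chaperone genes fell, and the quality control genes of the endoplasmic reticulum were split. Of 46 chaperone genes, 29 fell (63.0%) and 3 rose. HSPD1, the mitochondrial chaperonin HSP60, had 28073, 27550 and 28375 normalized counts in the control libraries and 8493, 7841 and 7345 with LIMp27 siRNA-2 (log2 fold change −1.83, standard error 0.05, adjusted p = 1.8e-21). HSPA8, the constitutive HSP70, had 45330, 47943 and 40372 normalized counts with control siRNA and 25564, 27393 and 31142 with siRNA-2 (log2 fold change −0.67, standard error 0.06, adjusted p = 1.8e-10), while the small heat shock gene HSPB1 rose (log2 fold change 0.57, standard error 0.07, adjusted p = 4.2e-08). Of 33 unfolded protein response genes, 13 rose and 10 fell. DNAJB9, a cochaperone of BiP, rose (log2 fold change 0.78, standard error 0.07, adjusted p = 3.6e-11), and EDEM1, which delivers misfolded glycoproteins for disposal, fell (log2 fold change −1.13, standard error 0.08, adjusted p = 6e-13). Of 33 genes of the ATF4 branch, which answers amino acid shortage, 19 fell and 7 rose (4 rose without replicate 1). SLC7A11, the cystine importer, had 1148, 1120 and 1192 counts in the control libraries and 584, 579.5 and 683 in the siRNA-2 libraries (log2 fold change −0.91, standard error 0.07, adjusted p = 6.7e-12), and TRIB3 and SESN2 rose by 0.70 and 0.61. Among 44 proteasome genes, 17 fell (38.6%, below the 41.6% of all genes above 1000 counts) and 5 rose. PSMA4, a subunit of the core particle, was lowest (log2 fold change −1.03, standard error 0.05, adjusted p = 4.8e-16).

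Lysosome genes leaned upward, and autophagy genes exceeded the share over all genes on both sides. Autophagy encloses cell contents for digestion in lysosomes. Of 46 lysosome genes, 21 rose (45.7%, against 27.7% of all genes) and 11 fell (23.9%, against 29.0%). Of 36 autophagy genes 17 rose (47.2%) and 12 fell (33.3%). ULK1, the kinase that starts autophagy, had 479, 452 and 450.3 normalized counts in the control libraries and 898, 947 and 878 with LIMp27 siRNA-2 (log2 fold change 0.98, standard error 0.07, adjusted p = 1.8e-12), whereas RB1CC1, which holds the same complex together, fell (log2 fold change −1.33, standard error 0.07, adjusted p = 8e-16) and so did its member ATG101 (−0.76). SCARB2 and WIPI2 rose by 0.70 and 0.68.

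Several growth factor receptors and ligands changed. WiDr cells carry mutant BRAF, which keeps the ERK pathway on. Of 27 ERK output genes, 16 fell (59.3%) and 6 rose (3 without siRNA-2 replicate 3), with a median of −0.29 that became −0.46 after the correction for GC content and length. EGFR had 2561, 2786 and 2646 normalized counts with control siRNA and 1206, 1179 and 1330 with siRNA-2 (log2 fold change −1.11, standard error 0.06, adjusted p = 2.5e-15), and its ligand TGFA had 1182, 1298 and 1174 counts in the control libraries and 474, 478 and 485 in the siRNA-2 libraries (log2 fold change −1.35, standard error 0.07, adjusted p = 6.2e-16). The related receptors ERBB2 and ERBB3 rose by 0.39 and 0.33, and the ligand AREG by 0.23. Of 16 genes of this family 5 rose and 7 fell (4 after the correction for GC content and length). Wnt genes were divided, with 13 of 30 up and 12 down. NKD1 and ASCL2, an inhibitor and a stem cell factor that Wnt induces, had log2 fold changes of 1.54 and 1.40, against −0.48 for the stem cell receptor LGR5. CCND1, which encodes cyclin D1, had 7164, 7741 and 7450 normalized counts in the control libraries and 3234, 3270 and 3282 with LIMp27 siRNA-2 (log2 fold change −1.19, standard error 0.05, adjusted p = 8.7e-18). In the Hippo pathway, kinases with their cofactors SAV1 and MOB1B restrain YAP1, and YAP1 acts through TEAD factors. YAP1 had 2515, 2633 and 2355 normalized counts with control siRNA and 4203, 4456 and 4777 with siRNA-2 (log2 fold change 0.84, standard error 0.06, adjusted p = 3.7e-13), TEAD2 had 638, 575 and 586 counts in the control libraries and 1646, 1703 and 1577 in the siRNA-2 libraries (log2 fold change 1.45, standard error 0.07, adjusted p = 3e-17), and the target gene CTGF had 638, 655 and 531 normalized counts in the control libraries and 1420, 1468 and 1601 with LIMp27 siRNA-2 (log2 fold change 1.30, standard error 0.07, adjusted p = 6.3e-15). SAV1 had 1671, 1596 and 1678 normalized counts with control siRNA and 509, 494 and 566 with siRNA-2 (log2 fold change −1.66, standard error 0.07, adjusted p = 2.9e-18), and MOB1B and AMOT, 2 more restraining proteins, had log2 fold changes of −1.38 and −1.67. WWTR1, a relative of YAP1 with 68.1 normalized counts on average, had the largest fall of the list (log2 fold change −1.78, adjusted p = 4e-08). Over the whole list 16 of 32 fell and 10 rose, with a median of −0.19.

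In TGF-beta signaling, TGFBR2, the receptor that binds the ligand, had 2316, 2276 and 2118 counts in the control libraries and 984, 1039 and 923 in the siRNA-2 libraries (log2 fold change −1.19, standard error 0.06, adjusted p = 9e-16), and SMAD3 had a log2 fold change of −0.91. TGFBI, a matrix protein named after its induction by TGF-beta, rose all the same (673, 712 and 682 normalized counts in the control libraries and 1764, 1871 and 1808 with LIMp27 siRNA-2; log2 fold change 1.40, standard error 0.06, adjusted p = 2.1e-17). The 36 genes of this list split into 11 up and 12 down. Of 23 Notch genes 6 rose and 6 fell: HES1, a classical target, and MAML2, a coactivator, rose (1.02 and 1.44), and the ligands JAG2 and JAG1 fell (−1.08 and −0.47). Among 31 immediate early genes 10 rose and 11 fell, with FOSL1 and JUNB lower (−0.95 and −0.64) and ATF3 higher (0.42). In the MYC network, MXD4, which competes with MYC for its partner MAX, had 336, 349 and 399 normalized counts with control siRNA and 1125, 1435 and 1203 with siRNA-2 (log2 fold change 1.79, standard error 0.09, adjusted p = 1.3e-16). MXD3 and MLXIP rose by 0.62 and 0.86, MYC had a log2 fold change of −0.28, and MAX did not pass the test at −0.06. Of 26 nuclear receptors 6 rose and 9 fell, with NR2F1 far above the rest and PPARA next (0.92).

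Cell death genes moved on both sides. The BCL2 family sets the threshold at which mitochondria release cytochrome c, and caspases carry out the death program that inhibitors of apoptosis hold back. Besides BMF, the death-promoting BBC3 (PUMA) had 238, 192 and 244 counts in the control libraries and 399.9, 512 and 403 in the siRNA-2 libraries (log2 fold change 0.96, standard error 0.11, adjusted p = 1.4e-08), whereas PMAIP1 (NOXA) had 506, 572 and 523 normalized counts in the control libraries and 202, 205 and 207 with LIMp27 siRNA-2 (log2 fold change −1.38, standard error 0.09, adjusted p = 2e-13). The survival factor MCL1 had 8940, 9269 and 8938 normalized counts with control siRNA and 6143, 5958 and 6314 with siRNA-2 (log2 fold change −0.56, standard error 0.05, adjusted p = 6.9e-11), and BCL2L1 and BAX did not pass the test (0.02 and 0.01). Of 19 family members 6 rose and 6 fell. CASP6 and CASP9 rose by 0.77 and 0.72. APAF1, on which caspase-9 is activated, fell by 0.98 on the log2 scale. Of 28 caspase, death receptor and inhibitor of apoptosis genes 8 rose (5 without replicate 2) and 11 fell.

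Growth control genes differed by list: FOXO genes rose more often than they fell, and the other lists given here fell more often. Of 32 p53 target genes, 15 fell and 7 rose. The study classes WiDr cells as p53-mutant, and the part of p53 in these counts was not tested. MDM2, a ubiquitin ligase, had 1116, 998 and 1067 counts in the control libraries and 368, 298 and 338 in the siRNA-2 libraries (log2 fold change −1.66, standard error 0.08, adjusted p = 1.5e-16), TRIAP1 had a log2 fold change of −1.64, and TP53INP1 rose by 1.12. FOXO factors act in resting cells, and 12 of 24 genes of this list rose and 7 fell. FOXO1 and FOXO3 themselves fell (−1.50 and −1.004) and FOXO4 rose (0.81). SESN3 and CAT, which limit oxidative damage, rose (1.40 and 0.84). Replication genes leaned down, with 32 of 51 lower (62.7%) and 3 higher. FEN1, the flap endonuclease, had 4937, 4927 and 4329 normalized counts in the control libraries and 2243, 2329 and 2203 with LIMp27 siRNA-2 (log2 fold change −1.07, standard error 0.06, adjusted p = 1.5e-15). Of 64 mitotic genes 35 fell and 11 rose, with a median of −0.21 that became −0.09 after the correction for GC content and length. CDK1 had a log2 fold change of −0.67, while CENPF and CENPA rose (0.65 and 0.56). Of 46 DNA repair genes 24 fell and 6 rose, with NBN (−1.04), CHEK2 (−0.98) and CHEK1 (−0.89) lowest.

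Most of the tested keratin and colon identity genes fell, and junction genes were divided. The colon epithelial markers summed to 270380 to 284573 raw reads per control library and 142370 to 211156 with LIMp27 siRNA-2. These sums are not scaled to depth, so part of their spread follows the library sizes. Of the 10 markers tested, 6 were lower and 3 higher, and their part in the changes of this group was not tested. Keratins form the intermediate filaments of epithelia, and 8 of the 14 tested fell and 2 rose. KRT20, a keratin of differentiated gut cells, had 6172, 6323 and 5889 normalized counts with control siRNA and 2414, 2425 and 2448 with siRNA-2 (log2 fold change −1.33, standard error 0.05, adjusted p = 1.1e-18). KRT8 and KRT18, which pair in simple epithelia, both fell. KRT8 had 152018, 156160 and 145218 counts in the control libraries and 92244, 95801 and 84866 in the siRNA-2 libraries (log2 fold change −0.73, standard error 0.05, adjusted p = 1.8e-13), and KRT18 had a log2 fold change of −0.66. KRT13, a keratin of stratified epithelia, had 185, 161 and 172 normalized counts in the control libraries and 23.8, 28.2 and 19.7 with LIMp27 siRNA-2 (log2 fold change −2.84, standard error 0.18, adjusted p = 9.9e-14). Of 27 colon identity genes 15 fell (55.6%) and 6 rose. SPDEF, a factor of goblet cells, had 296, 317 and 259 normalized counts with control siRNA and 85.1, 85.7 and 82.1 with siRNA-2 (log2 fold change −1.78, standard error 0.12, adjusted p = 6.9e-13), and CEACAM5, the carcinoembryonic antigen, had 264, 291 and 252 counts in the control libraries and 84.2, 86.8 and 85.6 in the siRNA-2 libraries (log2 fold change −1.65, standard error 0.12, adjusted p = 2.9e-12). AQP3, a water channel, rose (377, 408 and 380.1 normalized counts in the control libraries and 928, 952 and 946 with LIMp27 siRNA-2; log2 fold change 1.28, standard error 0.07, adjusted p = 5.9e-15), and VIL1, the microvillus protein villin, rose by 0.79. Of 32 junction genes 11 rose and 14 fell. CLDN2, a claudin that forms pores, had 9142, 8729 and 8661 normalized counts with control siRNA and 17459, 17242 and 16426 with siRNA-2 (log2 fold change 0.95, standard error 0.05, adjusted p = 5.4e-16). Only 4 of 16 mucin genes had enough reads to be tested, and MUC13 fell by 0.73 on the log2 scale.

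Actin regulators and integrins changed in both directions. Of 53 actin filament genes, 28 fell (52.8%) and 12 rose. CFL2, a cofilin that severs filaments, had 663, 608 and 686 counts in the control libraries and 130.2, 140 and 98.3 in the siRNA-2 libraries (log2 fold change −2.40, standard error 0.11, adjusted p = 2e-17). CAPZA1, which caps their fast-growing ends, had 5718, 5587 and 5840 normalized counts in the control libraries and 1588, 1435 and 1490 with LIMp27 siRNA-2 (log2 fold change −1.92, standard error 0.06, adjusted p = 1.8e-21), and ARPC5, of the branching complex Arp2/3, had 3356, 3370 and 3346 normalized counts with control siRNA and 1177, 1074 and 1120 with siRNA-2 (log2 fold change −1.58, standard error 0.06, adjusted p = 2.5e-19). TAGLN and TPM4, which bind along filaments, rose by 1.22 and 0.80. Of 29 integrin and laminin genes 10 fell and 8 rose. ITGAV, the integrin subunit that binds osteopontin, had 3359, 3707 and 3346 counts in the control libraries and 1055, 1080 and 1119 in the siRNA-2 libraries (log2 fold change −1.68, standard error 0.06, adjusted p = 1.5e-19), and ITGA2 and LAMA3 had log2 fold changes of −1.46 and −1.21. Of 12 mesenchymal transition genes tested 5 rose and 5 fell, with FN1 and TNC up (0.55 and 1.05) and SNAI1 down (−1.14), and VIM did not pass the test (0.27). Their median of 0.15 turned to −0.04 without control replicate 3 and −0.10 without siRNA-2 replicate 2.

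RNA and chromatin genes held some of the largest single changes. G3BP1 and G3BP2 are paralogs that build stress granules, and they moved in opposite directions. G3BP1 had 5542, 5479 and 5697 normalized counts in the control libraries and 1472, 1283 and 1260 with LIMp27 siRNA-2 (log2 fold change −2.06, standard error 0.06, adjusted p = 1.9e-21), and G3BP2 had 1490, 1331 and 1503 normalized counts with control siRNA and 2961, 3005 and 3573 with siRNA-2 (log2 fold change 1.14, standard error 0.07, adjusted p = 1.3e-14). The MEX3 family binds RNA and marks proteins for destruction. MEX3B had 66.0, 85.6 and 56.9 counts in the control libraries and 264, 289 and 286 in the siRNA-2 libraries (log2 fold change 2.01, standard error 0.14, adjusted p = 3.6e-13), MEX3A had 459.5, 507 and 436 normalized counts in the control libraries and 1413, 1391 and 1415 with LIMp27 siRNA-2 (log2 fold change 1.59, standard error 0.07, adjusted p = 1.3e-17), and MEX3D rose by 0.76. Of the 24 genes of their list 8 rose and 6 fell (10 without replicate 3). Of 25 hnRNP genes 13 fell and 5 rose. HNRNPA3 had 11610, 11418 and 11511 normalized counts with control siRNA and 4395, 4047 and 4159 with siRNA-2 (log2 fold change −1.45, standard error 0.05, adjusted p = 9.4e-20), against 0.52 for HNRNPA0 and 0.22 for HNRNPA1. Of 63 splicing factors 30 fell and 7 rose (12 after the correction for GC content and length), with PTBP3 lowest (−1.11). Nuclear pore and transport genes fell in 28 of 42 cases (66.7%) and rose in 3, with TNPO1, an import receptor of hnRNP proteins, at −1.24. In the small RNA machinery, on which siRNA itself depends, 9 of 17 genes fell and 4 rose. AGO2, the Argonaute that cleaves targets, had 5325, 5720 and 5474 counts in the control libraries and 3782, 3838 and 4023 in the siRNA-2 libraries (log2 fold change −0.51, standard error 0.05, adjusted p = 1.6e-09), TARBP2, which helps load it, had a log2 fold change of −0.81, and AGO1 rose by 0.46. HMGN1, a nucleosome-binding protein, had 6167, 5911 and 6006 normalized counts in the control libraries and 2162, 2102 and 2047 with LIMp27 siRNA-2 (log2 fold change −1.52, standard error 0.05, adjusted p = 8.9e-20). Of 41 high mobility group and chromatin remodeling genes 13 rose and 13 fell, with the DNA methyltransferase DNMT3A up (0.86). Of 27 histone genes 12 rose and 8 fell. The falls numbered 3 without replicate 1, 5 without replicate 3, 5 without control replicate 1, 4 without control replicate 3, 4 without siRNA-2 replicate 1 and 5 by DESeq2. Of 22 noncoding hosts of small nucleolar RNAs 5 rose (3 without replicate 2, control replicate 2 or siRNA-2 replicate 3) and 6 fell.

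Long intergenic, antisense and zinc finger genes rose more often than they fell, whereas of 87 sense intronic genes 6 rose and 11 fell. Protein-coding genes had 3268 rises and 3907 falls among 11745 tested. Among 431 long intergenic RNA genes 142 rose (32.9%) and 38 fell (8.82%), with a median log2 fold change of 0.31, and among 1021 antisense genes 304 rose (29.8%) and 67 fell (6.56%), with a median of 0.30. These classes hold low-level genes, and genes under 100 normalized counts had a median of 0.20 as a whole. At that level the medians were 0.10 for 2005 protein-coding genes, 0.35 for 360 long intergenic genes and 0.30 for 889 antisense genes. After the correction for GC content and length the medians of the long intergenic and antisense classes were 0.27 and 0.16. C2H2 zinc finger factors, the largest family of human transcription factors, had 179 rises (38.3%) and 66 falls (14.1%) among 467 genes, with a median of 0.20 and 0.21 after the correction. The 192 of them on chromosome 19, where many lie in clusters, had 84 rises and 20 falls, with a median of 0.23. Chromosome 19 without these factors had 312 rises and 151 falls among 832 genes, with a median of 0.15 that became 0.045 after the correction. Over 27 zinc finger factors with more than 1000 counts the order turned, with 6 rises and 15 falls. Related zinc finger genes share sequence, so their reads can be split. Across all tested genes the log2 fold change had a Spearman correlation of 0.18 with GC content, −0.13 with gene length and −0.19 with the mean count, given as a description since genes of the same libraries share depth and base composition.

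LIMp27 siRNA-2 and LIMp27 siRNA-1 were also compared directly, which asks where the 2 siRNAs against the same RNA left different transcript levels. Of 14415 genes tested over their 6 libraries, 3326 were higher (23.1%) and 3224 were lower (22.4%) with LIMp27 siRNA-2. This comparison shares its siRNA-2 libraries with the one against control siRNA, so the 2 sets of values are not independent. Its normalized counts are scaled to these 6 libraries and differ slightly from those above. Some of the largest changes against control siRNA stood far from the level with the other siRNA. ERAP2 had 779, 867 and 813 counts with siRNA-1 and 184, 165 and 147 with siRNA-2 (log2 difference −2.30, standard error 0.09, adjusted p = 4.3e-19), and DYNLT3, a dynein light chain, had 879.6, 789.6 and 799 counts with siRNA-1 and 184, 158 and 173 with siRNA-2 (log2 difference −2.25, standard error 0.09, adjusted p = 3.7e-19). The siRNA-2 libraries of these genes lay below both other groups. TSFM, a mitochondrial elongation factor, and MYH15, a myosin, behaved alike, with log2 differences of −2.13 and −2.24 from siRNA-1. Among the rises, LUM had 27.4, 44.7 and 21.8 counts with siRNA-1 and 204, 182 and 220.3 with siRNA-2 (log2 difference 2.70, standard error 0.18, adjusted p = 2.2e-13). In other genes the siRNA-2 level was nearer to control than to siRNA-1. EEF2, the elongation factor that moves the ribosome along, had 3951, 3347 and 4115 counts with siRNA-1 and 30310, 31947 and 32721 with siRNA-2 (log2 difference 3.06, standard error 0.06, adjusted p = 3.1e-26), but only a log2 fold change of −0.30 against control. HNRNPA1 had 5511, 5030 and 5261 counts with siRNA-1 and 28878, 27201 and 28704 with siRNA-2 (log2 difference 2.42, standard error 0.05, adjusted p = 6.1e-26), against 0.22 from control, and its processed pseudogene HNRNPA1P48 went with it, with reads that cannot be assigned with certainty between near-identical copies. KRT17 had 178, 225 and 252 counts with siRNA-1 and 1298, 1382 and 1337 with siRNA-2 (log2 difference 2.60, standard error 0.09, adjusted p = 7.8e-21), against 0.31 from control. AKR1B10, an aldo-keto reductase, fell against control (−1.30) but had 743, 662 and 738 counts with siRNA-1 and 3119, 3130 and 3245 with siRNA-2 (log2 difference 2.15, standard error 0.06, adjusted p = 1.7e-22). B3GNT7, which extends sugar chains, had 434, 414 and 483 counts with siRNA-1 and 80.1, 94.1 and 66.1 with siRNA-2 (log2 difference −2.47, standard error 0.12, adjusted p = 6e-17). NKD1, BIRC3 and CCND1 also differed between the siRNAs, with log2 differences of −1.65, 1.26 and 0.64. Their log2 fold changes against control were 1.54, −2.20 and −1.19, so their levels with siRNA-1 lay further from control in the same direction. SPP1 and MEX3A did not pass the test of the difference. SPP1 had a log2 difference of −0.34 (standard error 0.22, adjusted p = 0.21) and MEX3A one of 0.06 (standard error 0.06, adjusted p = 0.42).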

How the data were processed

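RNA of WiDr cells was sequenced from strand-specific libraries, 3 for each siRNA. The authors deposited, per gene, raw read counts, FPKM values computed from them and gene length, together with fold changes and p-values of their own comparisons, which were not used. CASAVA and GRCh38 are named in the submitters' processing notes. The aligner, the counting program and its strand setting are not given in the sources used here. The control counts are identical in both deposited tables, and the siRNA-2 table lists no gene below 2 reads in total. The deposited FPKM values entered no test. Columns of samples outside the study numbered 0.

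Counts were normalized by TMM and tested with edgeR 4.0.16 in R 4.3.3 by the quasi-likelihood test, over the 3 siRNA-2 and 3 control libraries (or the 3 siRNA-1 libraries), after filterByExpr with a minimum count of 10, with Benjamini-Hochberg adjustment over all tested genes and a threshold of 0.05. Standard errors are those of the fitted log2 fold change. Alternatives were DESeq2 1.42.0, RLE size factors, no filter, the replicate number as a block, a loess correction for GC content and length, all 9 libraries in one fit, and each library or replicate number left out. The fit was also run on simulated data in which few genes changed, unlike in these libraries, so it cannot check the calls where most genes move.

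The members, gene lists and tests were chosen with earlier results of these data known. Genes named are the 12 largest rises and falls that averaged 100 normalized counts or more and whose groups did not overlap, up to 3 rises and 3 falls per list at that level, any member of a list of at most 25, the genes at the center of the study, the 6 largest differences each way between the siRNAs, and cell type markers. Positions and gene classes follow the deposited tables, whose 23919 identifiers are all in GENCODE 29. Promoter windows came from RefSeq (GRCh38.p14). With 14361629 or more reads per library, precision is limited mainly for genes under 100 counts. Some items are not reported here.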

Additional observations from a re-analysis of the deposited data

Results flagged for a closer look

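The level with LIMp27 siRNA-2 differed from that with LIMp27 siRNA-1 in the direct test of 11 genes that also differed from control siRNA, taken from the largest differences each way. The log2 differences, siRNA-2 minus siRNA-1, were −2.47 for B3GNT7, −2.30 for ERAP2, −2.25 for DYNLT3, −2.24 for MYH15 and −2.13 for TSFM on the lower side. On the higher side they were 3.06 for EEF2, 2.73 for HNRNPA1P48, 2.70 for LUM, 2.60 for KRT17, 2.42 for HNRNPA1 and 2.15 for AKR1B10. HNRNPA1P48 is a pseudogene of HNRNPA1, so reads of near-identical copies cannot be assigned to one of them with certainty.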

How the results depend on the processing

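Under the alternative normalization, filter, tool, correction and 9-library fits, and with each library or replicate number left out, the number of genes called stayed within 1.5 times of 3939 higher and 4120 lower against control siRNA, and of 3326 and 3224 against LIMp27 siRNA-1. DESeq2 called 3544 higher and 3872 lower against control siRNA. With libraries left out, the calls against control siRNA ranged from 3133 to 3817 higher and from 3433 to 4187 lower, and those against LIMp27 siRNA-1 from 2510 to 3144 higher and from 2659 to 3299 lower. With a fold change of at least 2 also required, 634 genes were higher and 656 lower than with control siRNA, by construction fewer.

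The labels number the replicates alike in each group. Between same-numbered control and siRNA-2 libraries, the deviations from the group mean correlated at −0.022, 0.116 and 0.036. For other pairs the correlations ran from −0.205 to 0.181, and not every library correlated best with its own number. Deviations from a mean of 3 libraries are tied to each other, so these values cannot show whether a batch was shared. LIMp27 siRNA-1 was not compared in this way. With the replicate number as a block, 4026 genes were higher and 4223 lower than with control siRNA, and 3311 and 3260 than with LIMp27 siRNA-1. With the block and the correction for GC content and length together, these were 4050 and 4077, and 3779 and 3457.

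The counts of several gene lists moved by over 1.5 times under single settings, as given beside them, and the cause was not tested. The correction for GC content and length moved 8 of the 120 list counts in this way. It moved 37 of the 60 list medians by more than 1 standard deviation of the list median over the libraries of a group, and no filter on low counts moved 29. The median of the mucin genes was −0.56 over 4 tested and 0.21 with no filter on low counts. The depth did not allow LIMp27 itself to be compared.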
